A study of Mus musculus with 12 samples.

Results

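The genes described here are 38 genes of the fibroblast extracellular matrix and cytoskeleton, measured by RNA sequencing in mouse L929 cells. They were chosen by symbol: collagens, matrix glycoproteins and proteoglycans, lysyl oxidases, matrix metalloproteinases and their inhibitors, a pair of integrin chains and genes of the cytoskeleton. Each of the 38 matched 1 gene of the 54532 counted. L929 is an established fibroblast line of mouse connective tissue. The 12 libraries carry 6 labels with 2 libraries each: mock, labelled as untreated; cGAMP, named as a stimulation; and G3-YSD, HSV, hpRNA and HT-DNA, each named as the agent transfected. All 12 libraries are of L929, the labels name no genetic change or further agent, and RNA was taken 6 h after transfection. Abbreviations are left as deposited. Within a label, the libraries are called 1 and 2 after the digit in their titles. For HSV the digit could also be part of a virus name, which the labels do not settle.

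The extracellular matrix is the scaffold that fibroblasts secrete. Fibrillar collagens give it tensile strength, type IV collagen forms the sheet-like network of basement membranes, type VI collagen forms beaded filaments, and fibronectin and fibrillin assemble into fibres that cells grip through integrins. Lysyl oxidases crosslink the collagen, metalloproteinases cut it, and tissue inhibitors of metalloproteinases (TIMPs) hold those enzymes back. Transforming growth factor beta (TGF-beta) and actin-regulated transcription through serum response factor (SRF) are well-known activators of many, though not all, of these genes in fibroblasts.

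Promoter sequences are shown for 5 genes, because these genes stand for the 3 patterns described further on: Col5a1 and Thbs2 moved in opposite directions in libraries 1 and 2 of G3-YSD and HSV, Timp1 was high in all 4 of these libraries, and Itga5 and Mmp14 were low in all 4. Each line gives the 150 bases before the RefSeq start of the gene (GRCm38.p6), 5′ to 3′ on the strand of the gene. The windows are chr2:27886275-27886424 on the plus strand for Col5a1, chr17:14694263-14694412 on the minus strand for Thbs2, chrX:20870016-20870165 on the plus strand for Timp1, chr15:103366792-103366941 on the minus strand for Itga5 and chr14:54431448-54431597 on the plus strand for Mmp14. Capitals mark matches, on either strand, to TGANTCA (the AP-1 element), TATAAA (the TATA box), CCAAT (the CCAAT box) or GGGCGG (the GC box).
Col5a1: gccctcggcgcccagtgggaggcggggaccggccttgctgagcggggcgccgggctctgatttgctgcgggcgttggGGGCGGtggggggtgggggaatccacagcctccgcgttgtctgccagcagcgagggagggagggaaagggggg
Thbs2: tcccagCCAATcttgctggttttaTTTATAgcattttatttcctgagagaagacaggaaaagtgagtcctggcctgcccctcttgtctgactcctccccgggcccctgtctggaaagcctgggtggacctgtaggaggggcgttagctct
Timp1: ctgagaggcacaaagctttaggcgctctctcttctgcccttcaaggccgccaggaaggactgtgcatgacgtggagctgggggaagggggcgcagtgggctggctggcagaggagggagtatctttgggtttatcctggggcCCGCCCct
Itga5: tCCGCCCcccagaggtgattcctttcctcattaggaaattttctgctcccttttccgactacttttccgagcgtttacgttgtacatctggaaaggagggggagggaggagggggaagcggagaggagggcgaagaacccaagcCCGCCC
Mmp14: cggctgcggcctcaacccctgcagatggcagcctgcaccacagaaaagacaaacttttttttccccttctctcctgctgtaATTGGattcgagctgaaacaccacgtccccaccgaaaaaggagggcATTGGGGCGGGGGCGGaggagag
The Col5a1 window held 1 GGGCGG match and was 74.7% G or C. In the Thbs2 window there was 1 TATAAA and 1 CCAAT match, and G or C made up 53.3% of it. Timp1 held 1 GGGCGG match, 8 bases before the start, Itga5 held 2, and Mmp14 held 2 CCAAT and 2 GGGCGG matches. One CCAAT match of Mmp14 overlaps a GGGCGG match. None of the 5 windows held TGANTCA. Among all 32851 RefSeq windows of this length, 28.6% held GGGCGG, 24.5% CCAAT, 7.57% TATAAA and 4.24% TGANTCA. A match is a description of the letters and not of binding. An entry was found for 26 of the 38 genes.

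Libraries held 12650790 to 18912400 counts. They did not group by label alone. Over the 30 members that passed the filter on low counts, the median absolute log2 difference between libraries 1 and 2 was 0.915 for G3-YSD and 1.01 for HSV, against 0.191 for mock. It was 0.083 between G3-YSD 1 and HSV 1, and 0.046 between G3-YSD 2 and HSV 2. Over all 16840 genes tested it was 0.671 between G3-YSD 1 and 2 and 0.109 between G3-YSD 2 and HSV 2. So the libraries of G3-YSD and HSV that share a number were far closer to each other than the 2 libraries of either label. Mitochondrial genes took 3.64% and 3.53% of counts in G3-YSD 2 and HSV 2 and 2.03% to 2.52% in the others. Genes with a count numbered 26496 and 26241 in G3-YSD 1 and HSV 1, 23997 and 23909 in G3-YSD 2 and HSV 2, and 21635 to 22550 in the other 8. Their part in the results was not tested. Each value below is therefore given per library. Levels are library-size-scaled counts (CPM, on the TMM scale), and errors of a mean are SD with n = 2.

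L929 cells expressed a restricted set of these genes. Averaged over the 12 libraries, 22 of the 38 were at or above 20 CPM and 12 were below 1 CPM. Per kilobase of exon, the highest level in mock was that of Vim, the intermediate filament vimentin, at 457 CPM per kb. Sparc, a collagen-binding glycoprotein, followed at 156, and the basement membrane chains Col4a1 and Col4a2 stood at 103 and 68.2 CPM per kb. Timp2 (60.4), the elastic fibre protein gene Fbln2 (55.9), Col6a1 (48.0), Timp1 (46.9) and Col5a1 (46.5) came next on the same scale. Col1a1 and Col1a2, the chains of type I collagen that dominates most fibroblast matrix, reached 35.2 and 19.1 CPM per kb. Col3a1, its common partner in loose connective tissue, stood at 0.776 CPM per kb.

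Several genes that usually mark fibroblasts were close to silent. Dcn, the proteoglycan decorin, had 0 counts in all 12 libraries, which allows at most 0.0152 CPM over the 196876785 counts of the series, for counting error only. Lum, encoding lumican, had 1 count in all. Low totals over the 12 libraries were also found for Mmp3 (5 counts), Timp3 (22), Postn (25), Mmp2 (26), Lox (31) and Acta2, the smooth muscle actin of myofibroblasts (43). These 8 genes did not pass the filter on low counts and were not tested. Thbs1 (35 counts), Mmp13 (71), Tagln (105), Tnc (175) and Mmp9 (181) passed it with few counts, Thbs1, Tnc and Mmp13 mostly through counts in the G3-YSD and HSV libraries.

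**Figure D1:**
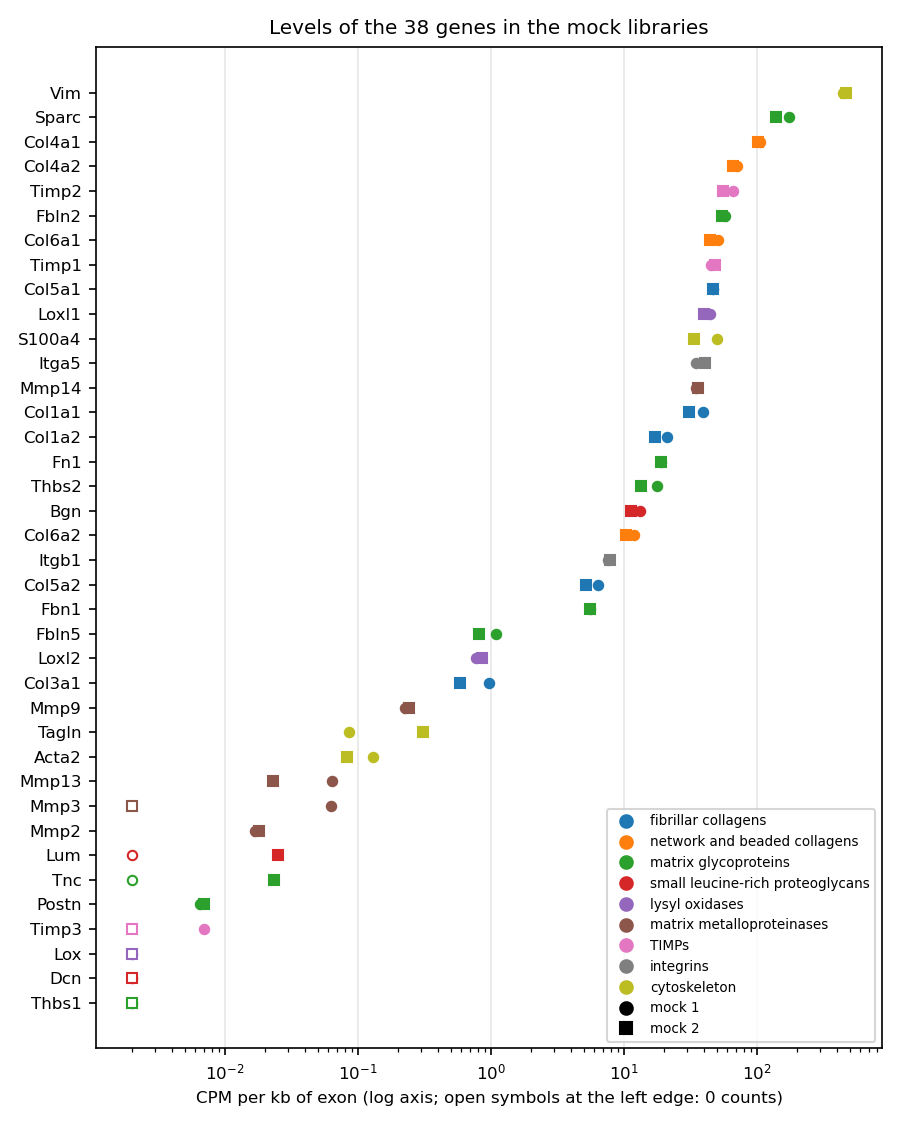
Level of each of the 38 genes in the mock libraries, in CPM per kilobase of exon on a log axis; circles are mock 1, squares mock 2, colours mark the role, and open symbols at the left edge mark 0 counts. Vim, Sparc and Col4a1 lead at 457, 156 and 103 CPM per kb on average, while Dcn has no count.

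No member was called different from mock with HT-DNA, hpRNA or cGAMP. Each label was compared with mock by edgeR's quasi-likelihood test with Benjamini-Hochberg adjustment over all 16840 genes, and a gene was called at an adjusted p under 0.05. Of the 30 members tested, 0 were called for HT-DNA, hpRNA or cGAMP, against 0.0% of all genes in each of these comparisons. DESeq2 called 0 as well. At an unadjusted p under 0.05, 0 members differed for HT-DNA and hpRNA and 1, Timp1, for cGAMP. Of all 16840 genes, 62, 58 and 99 did for HT-DNA, hpRNA and cGAMP. The median log2 fold change of the members was -0.03 for HT-DNA and 0.03 for hpRNA.

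With G3-YSD or HSV, 2 of 30 members were called higher than mock, the same pair for both agents. They were Fbn1, encoding the microfibril protein fibrillin-1, and Timp1, a secreted metalloproteinase inhibitor. Across all genes, 1.79% were called higher and 3.37% lower with G3-YSD, and 1.73% and 3.47% with HSV. No member was called lower than mock with either agent by this test. At an unadjusted p under 0.05, 6 of the 30 members differed for each agent. Of all 16840 genes, 4072 did for G3-YSD and 4092 for HSV. These comparisons share the mock libraries. The labels say that the transfections were done in duplicate, so the p-values measure only the spread between these libraries, part of which may be technical.

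Fbn1 (chr2:125300594-125507993, minus strand, GRCm38) stood at 67.0 and 67.7 CPM in mock 1 and 2, and at 63.2 to 73.0 CPM in the HT-DNA, hpRNA and cGAMP libraries. It stood at 113.2 and 127.4 CPM in G3-YSD 1 and 2, and at 109.9 and 116.9 CPM in HSV 1 and 2. All 4 of these values lay above the other 8, with no overlap. The log2 fold change against mock was 0.84 ± 0.13 (SE) for G3-YSD (edgeR adjusted p = 0.0182) and 0.75 ± 0.13 for HSV (adjusted p = 0.0212).

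Timp1 (chrX:20870166-20874735, plus strand) lies within Syn1 on the opposite strand, and no source used here states the counting strand, so reads from both genes cannot be told apart. It stood at 40.1 and 43.2 CPM in mock and between 40.0 and 59.1 CPM in the HT-DNA, hpRNA and cGAMP libraries, the highest being cGAMP 2. G3-YSD 1 and 2 gave 68.4 and 66.7 CPM, and HSV 1 and 2 gave 66.7 and 68.6 CPM. The 4 libraries were again above the other 8. The log2 fold change was 0.70 ± 0.15 for both agents, with edgeR adjusted p = 0.0422 for G3-YSD and 0.0409 for HSV. The calls of Fbn1 and Timp1 were lost without mock 1 or without mock 2, as were all other calls over the genes tested. The loss was therefore not particular to these genes, and such a run leaves 1 mock library. Both calls were also lost without library 2 of the agent, where most calls over all genes were lost. With no filter on low counts, Timp1 lost its call for G3-YSD (edgeR adjusted p = 0.123) and HSV (0.114), and Fbn1 lost it for HSV (0.0673).

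Fn1, the gene of fibronectin (chr1:71585520-71653200, minus strand), was close to the threshold. Its levels were 222.5 and 223.0 CPM in mock and 200.1 to 234.7 CPM in the other 6 libraries of the first 4 labels. They were 313 and 403 CPM in G3-YSD 1 and 2 and 309 and 365 CPM in HSV 1 and 2, all above the other 8. The edgeR log2 difference from mock was 0.68 ± 0.16 for G3-YSD (adjusted p = 0.0502) and 0.60 ± 0.16 for HSV (adjusted p = 0.0735). DESeq2 called Fn1 and Tnc in both comparisons, beside Fbn1 and Timp1, and Itga5 in the HSV comparison.

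Tnc, the gene of tenascin-C, an anti-adhesive glycoprotein of remodelling tissue, was nearly absent from mock, with 3 counts in the 2 libraries. The G3-YSD libraries held 76 counts and the HSV libraries 87, and Tnc passed the filter on low counts mostly through these libraries. With libraries 1 and 2 of each label pooled, the ratio of counts to mock was 28.8 for G3-YSD (95% exact counting interval 9.47 to 143). For HSV it was 34.7 (11.5 to 171). These intervals cover counting error only, and the ratios are a description. The levels were 1.18 and 4.31 CPM in G3-YSD 1 and 2, 1.72 and 4.87 CPM in HSV 1 and 2, and at most 0.259 CPM in the other 8 libraries. The edgeR adjusted p against mock was 0.0723 for G3-YSD and 0.0639 for HSV.

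Against cGAMP, which carries the same wording of the cell source as G3-YSD and HSV, Fbn1 and Fn1 were called higher with G3-YSD, and Fbn1 higher and Itga5 lower with HSV. The background was 1.85% of all genes called higher and 3.15% lower for G3-YSD, and 1.78% and 3.31% for HSV. For Fn1 the log2 fold change was 0.74 (edgeR adjusted p = 0.0399). For Itga5, the integrin chain that with Itgb1 forms the classical fibronectin receptor, it was -0.79 (edgeR adjusted p = 0.0453). This last call did not hold with upper quartile scaling (-0.64, adjusted p = 0.121) or with DESeq2's size factors in edgeR (-0.76, adjusted p = 0.0542). With no filter on low counts, Fn1 (edgeR adjusted p = 0.0859) and Fbn1 (0.0632) lost their calls for G3-YSD, and Fbn1 (0.107) for HSV. All member calls against cGAMP were lost without cGAMP 1 or without cGAMP 2, as were the calls of all other genes. They were also lost without library 2 of the agent, where most calls over all genes were lost. Each such run leaves 1 library of a label. HSV against G3-YSD gave 0 called members of 30 by edgeR and by DESeq2, 0 at an unadjusted p under 0.05, and 0.0% of all genes called.

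**Figure D2:**
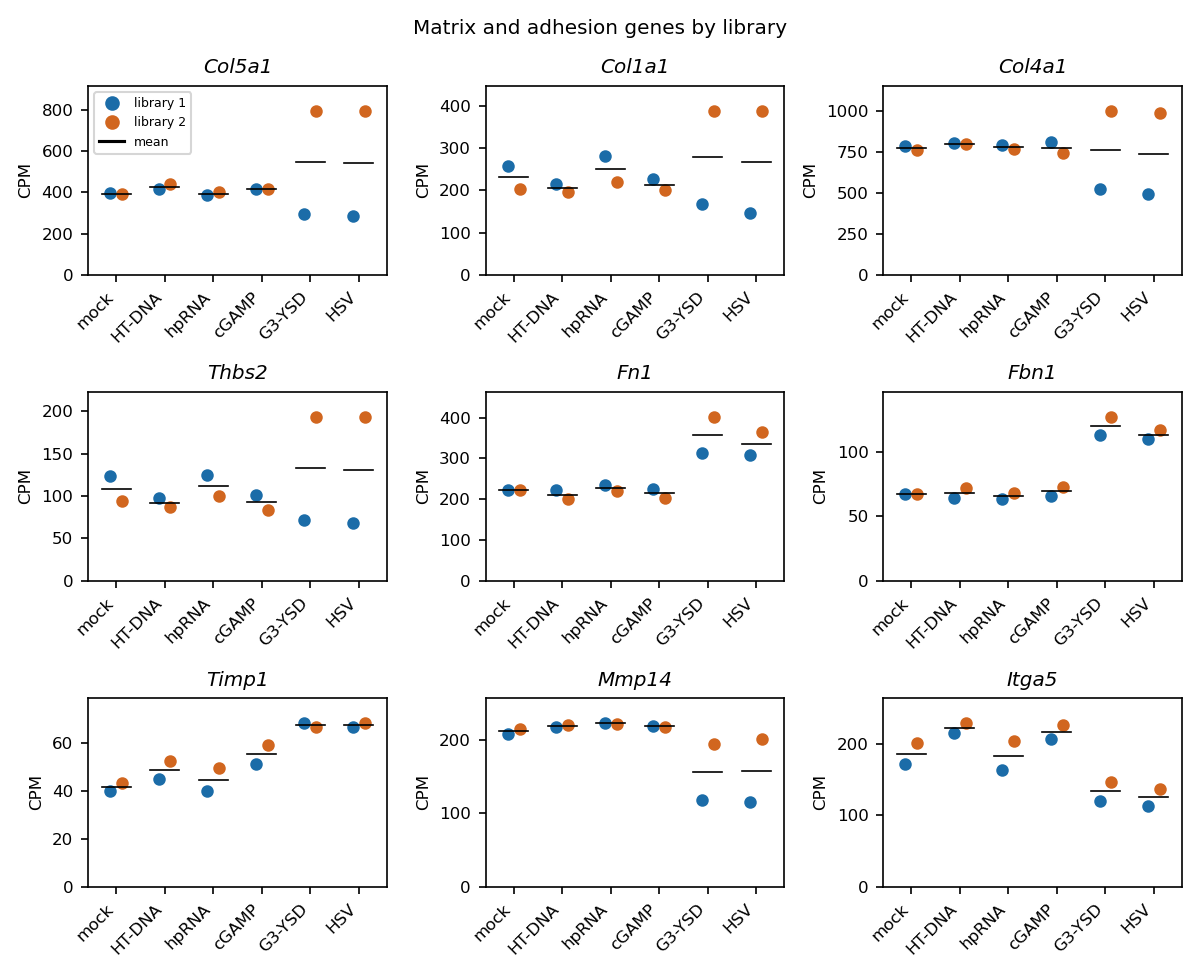
CPM of 9 members in each library by label, on linear axes from 0; blue points are library 1, orange points library 2, and the line is their mean. For Col5a1 the mean of G3-YSD lies between 297 and 795 CPM, the values of libraries 1 and 2, whereas Fbn1 stands at 113.2 and 127.4 CPM.

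For most collagens the mean of a label hid values on either side of the other libraries. A number term was fitted, 1 for G3-YSD and HSV and another for the first 4 labels. It was set up because summed matrix levels, known from earlier results of these data, differed between libraries 1 and 2 of G3-YSD and HSV. Its calls and p-values for the members therefore describe a difference already seen and are no independent test of it. In library 2 against library 1 of G3-YSD and HSV, 23 of the 30 members were called higher and 1 lower, against 32.4% of all genes called higher and 36.3% lower. The 23 include Tnc and Mmp13, which passed the filter on low counts through the G3-YSD and HSV libraries. The median log2 difference was 0.95 for the members and -0.04 for all genes. Among the 7813 genes with a mean of at least 20 CPM, which include 22 members, 43.5% were called higher and 36.7% lower. This test sets 2 libraries against 2 that are nearly identical across agents, so its p-values may be too small. What the number stands for is not given in the labels.

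In the first 4 labels the same contrast was small. Of the 30 members, 2 were called higher (Timp1 at 0.21 and Itga5 at 0.19 on the log2 scale) and 3 lower (Col1a1 at -0.25, Sparc at -0.19 and Thbs2 at -0.29), beside 4.97% and 3.88% of all genes. The difference between both number contrasts was called for 21 members, all 21 toward higher values in library 2 of G3-YSD and HSV, beside 28.7% of all genes in that direction and 31.4% in the other.

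**Figure D3:**
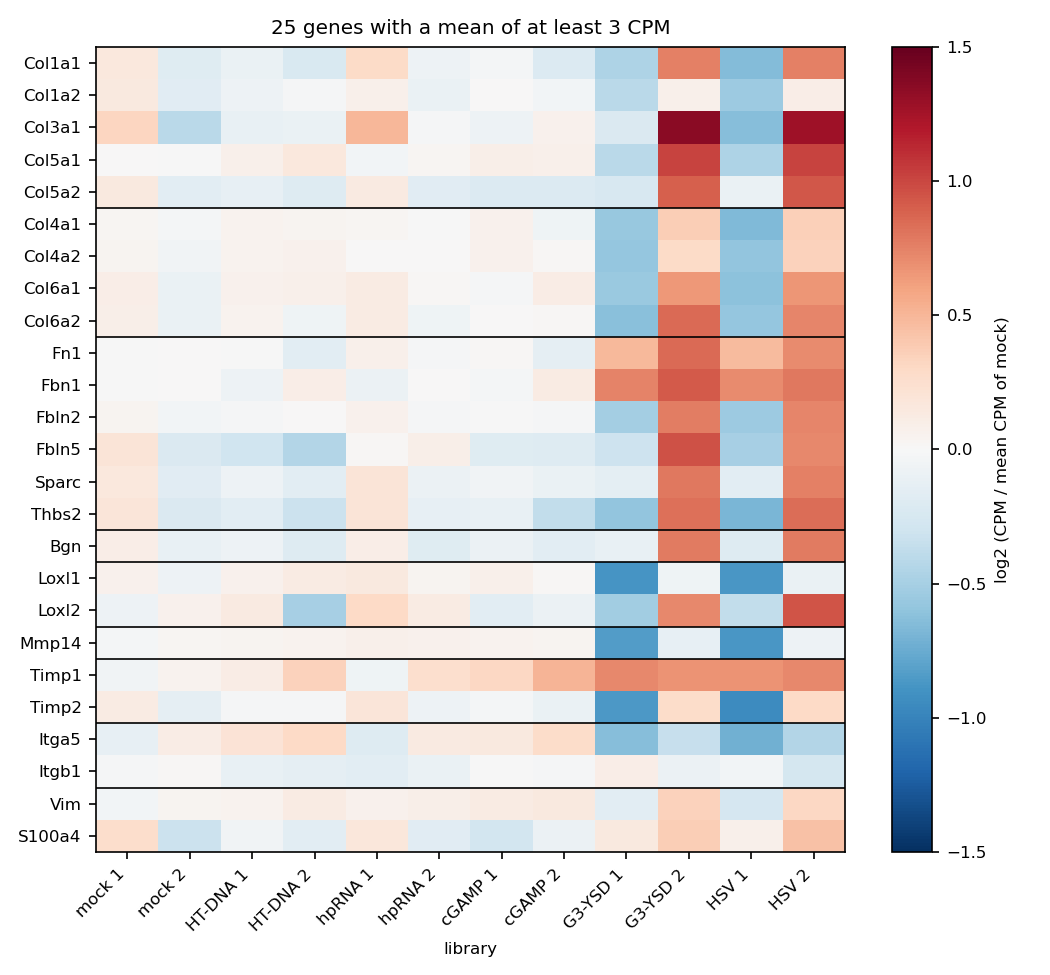
Log2 ratio of CPM to the mean of mock for the 25 members with a mean of at least 3 CPM (rows, grouped by role) in each library (columns). G3-YSD 1 and HSV 1 are mostly blue (lower) and G3-YSD 2 and HSV 2 mostly red (higher), while Fn1, Fbn1 and Timp1 are red in all 4 and Itga5 is blue in all 4.

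All 5 fibrillar collagens were higher in library 2 than in library 1. Col5a1 (chr2:27886425-28039514, plus strand), a type V chain that regulates fibril diameter and whose promoter is shown above, stood at 395 and 394 CPM in mock and 385 to 440.5 CPM in the other 6 libraries. It was at 297 and 286 CPM in G3-YSD 1 and HSV 1 and at 795 and 798 CPM in G3-YSD 2 and HSV 2. Neither pair overlapped the range of the other 8. The log2 difference between library 2 and library 1 was 1.45 ± 0.05 (edgeR adjusted p = 1.54e-08).

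Col1a1 followed the same order. It stood at 258 and 204 CPM in mock, 168 and 389.6 CPM in G3-YSD 1 and 2, and 147 and 389.4 CPM in HSV 1 and 2. The first 8 libraries ranged from 197 to 282 CPM, so libraries 1 of both agents lay below them and libraries 2 above. Its log2 difference was 1.31 ± 0.08. Col1a2, whose product pairs with that of Col1a1 in type I collagen, moved less: it was at 180.2 and 163 CPM in libraries 1 and at 250.6 and 256 CPM in libraries 2, the latter within the 212 to 264 CPM of the other 8. Its log2 difference was 0.56 ± 0.09. Col3a1 (1.72 ± 0.21, at 4.90 to 19.4 CPM over all libraries) and Col5a2 (1.08 ± 0.09) were called higher too.

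The 4 network and beaded collagens all fell outside the range of the other libraries in both directions. Col4a1 stood at 522 and 489.6 CPM in G3-YSD 1 and HSV 1, at 999 and 986 CPM in G3-YSD 2 and HSV 2, and between 739.6 and 806 CPM elsewhere. Col4a2 was at 301 and 299 CPM, then 551 and 571 CPM, against 436 to 473 CPM. Both genes lie head to head on chromosome 8 and their models overlap by 22 bases. Col6a1 was at 143 and 137 CPM in libraries 1 and at 329.6 and 333 CPM in libraries 2, against 196 to 229 CPM. Their log2 differences between library 2 and 1 were 0.97, 0.90 and 1.25, and that of Col6a2 was 1.40.

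Of the 9 matrix glycoproteins 8 were tested, and 6 were called higher in library 2, beside 32.4% of all genes higher and 36.3% lower. The 6 include Tnc, which passed the filter on low counts mostly through the G3-YSD and HSV libraries. Thbs2, encoding the matricellular protein thrombospondin-2, with its promoter shown above, gave 72.0 and 67.9 CPM in G3-YSD 1 and HSV 1 and 193.2 and 193.9 CPM in G3-YSD 2 and HSV 2. The other 8 libraries ranged from 84.0 to 124.4 CPM. The log2 difference was 1.47 ± 0.07. Fbln2 was at 250.01 and 244 CPM, then at 606 and 589.9 CPM, against 347 to 372 CPM.

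Sparc stood at 533 and 532 CPM in libraries 1, within the 524 to 677 CPM of the other 8, and at 1022 and 1001 CPM in libraries 2. Bgn, the proteoglycan biglycan and the 1 tested member of its class, gave 68.9 and 65.4 CPM, then 128.1 and 128.5 CPM, against 65.5 to 80.0 CPM. Fbln5 and Tnc were also called higher in library 2, by 1.24 and 1.67 on the log2 scale, and DESeq2 did not call Tnc (adjusted p = 0.0749). Fn1 was called by 0.30, whereas Fbn1 was not (0.13 ± 0.06, edgeR adjusted p = 0.0805). Thbs1 had 0 counts in both mock libraries and at most 0.743 CPM in any library.

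The crosslinking enzyme gene Loxl1 was low in libraries 1 of both agents and close to the other labels in libraries 2. It stood at 75.3 and 75.5 CPM in G3-YSD 1 and HSV 1, at 133.1 and 129.2 CPM in G3-YSD 2 and HSV 2, and at 132 to 153 CPM in the other 8. Its log2 difference between libraries 2 and 1 was 0.80. Loxl2 was called higher in library 2 by 1.28, at 3.07 to 8.50 CPM over these 4 libraries.

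Among the matrix metalloproteinases, Mmp14 was the 1 gene with substantial counts. It encodes a membrane-bound collagenase. It was at 118 and 116 CPM in G3-YSD 1 and HSV 1, at 195 and 201 CPM in G3-YSD 2 and HSV 2, and within the narrow range of 209 to 224 CPM in the other 8 libraries. All 4 values lay below that range. The log2 difference between libraries 2 and 1 was 0.76 ± 0.05. Mmp13, an interstitial collagenase, reached 1.77 and 2.15 CPM in G3-YSD 2 and HSV 2 and at most 0.171 CPM in the other labels. Its edgeR call between libraries 2 and 1 (2.20 ± 0.59) was not made by DESeq2 (adjusted p = 0.165). Mmp9 stayed between 0.520 and 1.49 CPM and was not called (edgeR adjusted p = 0.1).

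The TIMPs differed from each other. Timp2 was at 129 and 122 CPM in libraries 1 and at 284 and 289 CPM in libraries 2, below and above the 215 to 266 CPM of the other 8, and its log2 difference was 1.19 ± 0.08. For Timp1 the same difference was 0.00 ± 0.07 (edgeR adjusted p = 0.988). Timp3 was almost absent, with 0.846 and 0.578 CPM in G3-YSD 2 and HSV 2 and at most 0.0649 CPM elsewhere.

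The integrin chains did not follow the collagens. Itga5 (chr15:103344286-103366763, minus strand) stood at 172.5 and 202 CPM in mock and 164 to 231 CPM in the other 6 libraries of the first 4 labels. It was at 120.0 and 148 CPM in G3-YSD 1 and 2 and at 113 and 137 CPM in HSV 1 and 2, all below the other 8. Against mock the log2 difference was -0.48 for G3-YSD (edgeR adjusted p = 0.156) and -0.58 for HSV (0.106). Itgb1 was within 26.3 to 33.7 CPM in every library and was called lower in library 2 by the number term (-0.20), a call that did not hold with upper quartile scaling (-0.09, edgeR adjusted p = 0.279).

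Of the cytoskeletal genes, Vim had the highest level of all members and 1 of the smaller called differences. It stood at 1938 and 1822 CPM in G3-YSD 1 and HSV 1, 2758 and 2696 CPM in G3-YSD 2 and HSV 2, and 2104 to 2397 CPM in the other 8, a log2 difference of 0.54 ± 0.03. S100a4, a calcium-binding protein gene often used as a fibroblast marker, was at 25.8 to 33.2 CPM in these 4 libraries and was not called (0.29 ± 0.15, edgeR adjusted p = 0.111). It overlaps a gene model on the same strand, as Timp2 does, and Fbn1, Fn1, Tnc and Loxl2 overlap models on the opposite strand. Tagln was below 1.13 CPM throughout.

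Within each number, G3-YSD and HSV were then compared with mock in the fit with number terms, a contrast added after the data were seen. Each label has 1 library per number, so the spread was taken from the whole fit. There, libraries of G3-YSD and HSV that share a number are nearly identical, so the p-values of this contrast may be too small. Within number 1, 5 members were called higher and 17 lower for G3-YSD, and 5 and 17 for HSV. Across all genes, 28.5% were higher and 26.2% lower for G3-YSD, and 28.4% and 26.4% for HSV. Among the 7813 genes with a mean of at least 20 CPM, which include 22 members, more were lower. There the shares were 24% higher and 41.8% lower for G3-YSD, and 23.8% and 42.5% for HSV. Within number 2, 23 members were called higher and 1 lower for G3-YSD, beside 27.4% and 27.8% of all genes. For HSV within number 2 the counts were 23 and 2, beside 26.8% and 27.9%. Among the genes of at least 20 CPM, the shares within number 2 were 30.4% and 40.4% for G3-YSD. For HSV they were 29.5% and 40.9%. The 5 higher include Thbs1 and Tnc, and the 23 include both and Mmp13. These 3 genes passed the filter on low counts mostly through the G3-YSD and HSV libraries, so these counts are in part fixed by it. The medians of the members were -0.38 and 0.81 for G3-YSD within numbers 1 and 2, and -0.43 and 0.76 for HSV.

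Col5a1 was 0.41 ± 0.06 lower on the log2 scale within number 1 (-0.41, edgeR adjusted p = 0.00023) and 1.01 ± 0.06 higher within number 2 (edgeR adjusted p = 9e-07) for G3-YSD. Thbs2 was at -0.75 and 1.00, and Timp2 at -0.96 and 0.38. Fbn1 was at 0.82 and 0.85 and Timp1 at 0.80 and 0.59, called higher within both numbers. Itga5 was at -0.53 and -0.44, called lower within both. Mmp14 was at -0.86 within number 1 and -0.11 within number 2, where it was not called (edgeR adjusted p = 0.17). The small decreases of Sparc (-0.23), Bgn (-0.22), Col5a2 and Vim within number 1 were not called with upper quartile scaling or by DESeq2. For HSV, those of Fbln5, Sparc and Bgn were not. DESeq2 called 17 members within number 1 for G3-YSD and 18 for HSV, against 22 by edgeR for each. Of all genes DESeq2 called 36.5% and 36.9% there, against 54.7% and 54.8% by edgeR.

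**Figure D4:**
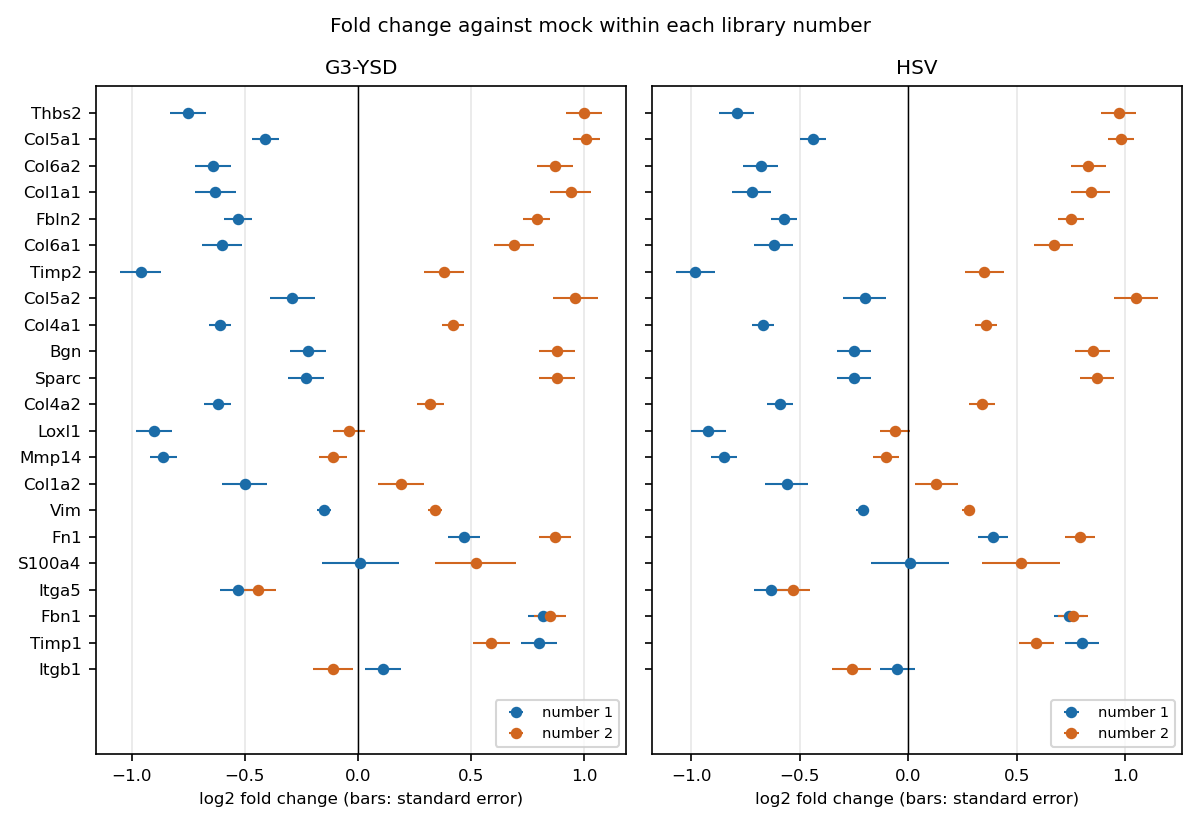
Log2 fold change against mock within number 1 (blue) and within number 2 (orange), with standard errors as bars, for the 22 members with a mean of at least 20 CPM, ordered by the difference between library 2 and library 1; left, G3-YSD, right, HSV. Thbs2 and Col5a1 lie at opposite sides of 0, whereas Fbn1 lies at 0.82 and 0.85 for G3-YSD.

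The position of the 4 libraries against the range of the other 8 was also read without a model. In 10 of the 30 members both libraries 1 lay below that range and both libraries 2 above it, against 7.23% of all genes: Col1a1, Col4a1, Col4a2, Col5a1, Col6a1, Col6a2, Fbln2, Thbs2, Timp2 and Vim. In 9 members, among them Sparc, Bgn, Col3a1 and Col5a2, both libraries 2 lay above while libraries 1 were not both on 1 side of the range (13.4% of all genes). For Thbs1 and Mmp9, 2 of these 9, G3-YSD 1 lay above the range as well. All 4 libraries lay above for 5 members (12.8%), Fbn1, Fn1, Mmp13, Timp1 and Tnc, and below for 2 (15.3%), Itga5 and Mmp14. Mmp13 and Tnc passed the filter through these 4 libraries, which fixed their place, so the count of 5 is a description. Both libraries 1 lay below, and libraries 2 were not both on 1 side, for Col1a2 and Loxl1 (7.37%), with HSV 2 also just below for Loxl1. For Itgb1 and Tagln neither pair lay on 1 side (13.8%). Libraries 2 lay above for 24 of 30 members in all, beside 33.4% of all genes, and libraries 1 below for 14, beside 29.9%. The 24 include Thbs1, Mmp13 and Tnc, which passed the filter mostly through the G3-YSD and HSV libraries, so this count is a description too.

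**Figure D5:**
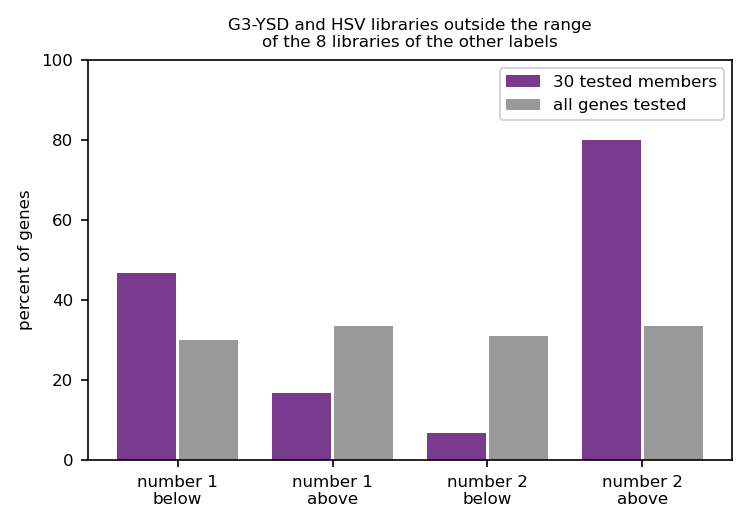
Percent of genes for which both libraries of a number of G3-YSD and HSV lie below or above the range of the 8 libraries of the other labels; purple bars are the 30 tested members, grey bars all 16840 genes tested. The tallest bar is that of libraries 2 above the range, 24 of the 30 members against 33.4% of all genes. The 24 include Thbs1, Mmp13 and Tnc, which passed the filter on low counts mostly through the G3-YSD and HSV libraries.

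The 38 genes together reached 7082 and 6766 CPM in mock 1 and 2, and their sum lay between 6766 and 7289 CPM in all 8 libraries of the first 4 labels. It was 5598 and 5352 CPM in G3-YSD 1 and HSV 1 and 9761 and 9618 CPM in G3-YSD 2 and HSV 2. The fibrillar collagens summed to 699 and 652 CPM in libraries 1 and to 1558 and 1567 CPM in libraries 2, against 865 to 990.3 CPM. The integrins were below the other labels in all 4, at 144 to 177 CPM against 192 to 259 CPM.

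Other genes of the matrix were read from lists of their pathways. Of 20 tested genes of collagen processing, 16 were called higher and 1 lower in library 2 against 1, with a median log2 difference of 0.84, beside the 32.4% higher and 36.3% lower of all genes. Serpinh1, the collagen chaperone HSP47, stood at 766 and 763 CPM in libraries 1, 1749 and 1725 CPM in libraries 2 and 1188 to 1386 CPM in the other 8, a log2 difference of 1.18 ± 0.06. P4hb (0.84), Adamts2 (1.49), Bmp1 (0.99) and Plod1 (0.88), enzymes that modify or trim procollagen, were called higher as well. Loxl3, a lysyl oxidase relative, was the 1 called lower: 227 and 239.7 CPM in libraries 1 and 86.6 and 86.9 CPM in libraries 2, against 85.0 to 135 CPM (-1.43 ± 0.06). Of 9 laminin and basement membrane genes, 8 were called higher, such as Lamb1 (1.44) and Col18a1 (1.11), and 1, Agrn, lower (-0.75), beside the same shares of all genes.

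Of 23 tested genes of the TGF-beta list, 9 were called higher in library 2 and 9 lower, with a median of -0.05, shares near those of all genes (32.4% and 36.3%). Tgfb2, a ligand, was higher by 2.39 ± 0.23. It was at 2.01 and 1.53 CPM in libraries 1, 8.61 and 10.1 CPM in libraries 2 and 0.260 to 0.514 CPM elsewhere. Tgfb2 passed the filter on low counts through the G3-YSD and HSV libraries, so its call is a description. Smad7, the inhibitory SMAD, was higher by 1.64 ± 0.11. Skil, a repressor of SMAD-driven transcription, was lower by 2.06 (-2.06 ± 0.07): it was at 209 and 192 CPM in libraries 1, 47.5 and 48.1 CPM in libraries 2 and 30.2 to 37.2 CPM elsewhere. Some genes of the list differed from mock in both libraries of an agent. Ltbp1, which tethers latent TGF-beta to the matrix, was called higher with G3-YSD (1.25 ± 0.20, edgeR adjusted p = 0.019) and HSV (1.22 ± 0.20, 0.0186). Smurf1, a ubiquitin ligase for SMADs and receptors, was called lower (-1.27 ± 0.12 and -1.29 ± 0.12, edgeR adjusted p = 0.0064 and 0.00584), at 91.5 to 97.2 CPM against 218 to 253 CPM. Tgfbr2, a receptor chain, was called higher with G3-YSD (0.64).

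In the list of SRF and actin genes 15 of 20 were called higher in library 2 and 4 lower, beside 32.4% and 36.3% of all genes. Mrtfa, the SRF coactivator (1.44), Actn4 (0.94) and Flna (0.82) were higher, and Zyx (-0.76), Vcl (-0.65), Actg1 (-0.90) and Srf itself (-0.50) were lower. No gene of this list or of collagen processing was called against mock in the label comparisons with either agent. Among 15 further integrin and adhesion genes 8 were called higher, such as Itga6 (1.24) and Itga3 (1.58), and 2 lower, beside the same shares of all genes. Itga11, a collagen-binding integrin chain, was at 11.3 and 11.4 CPM in G3-YSD 1 and HSV 1, 0.231 and 0.0 CPM in G3-YSD 2 and HSV 2, and at most 0.270 CPM in the other 8. It passed the filter on low counts through G3-YSD 1 and HSV 1. Of 17 further proteases and inhibitors 8 were called higher and 2 lower, against 32.4% and 36.3% of all genes. Plat, tissue plasminogen activator, stood at 226 and 219 CPM in libraries 1, 16.7 and 16.6 CPM in libraries 2 and 3.69 to 28.0 CPM elsewhere. Against mock, Adamts1 was called higher (1.43 for G3-YSD, 1.31 for HSV) and Mmp11 lower (-1.59 and -1.80), where 1.79% and 3.37% of all genes were called higher and lower for G3-YSD and 1.73% and 3.47% for HSV.

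The labelled cell type was checked against 13 fibroblast markers, of which Col1a1, Col1a2, Fn1, Vim, Pdgfra and Pdgfrb were well expressed, Thy1 and Pdpn stood at or below 0.488 and 0.295 CPM, and Dcn had no count. Their summed level was 3078 to 3393 CPM in the first 4 labels, 2794 and 2620 CPM in libraries 1 and 4216 and 4125 CPM in libraries 2 of G3-YSD and HSV, most of it from Vim, itself a member. Fap, fibroblast activation protein, went the other way, at 8.27 and 9.38 CPM in libraries 1, 2.23 and 1.82 CPM in libraries 2 and at most 1.34 CPM elsewhere. The 5 epithelial markers summed to at most 4.79 CPM and the 4 lymphocyte markers to at most 1.69 CPM in any library. The 4 endothelial markers summed to 0.549 to 1.11 CPM in the first 4 labels. Their sum was 11.8 and 9.69 CPM in libraries 1, mostly Kdr, and 6.00 and 6.03 CPM in libraries 2. In libraries 2 it was mostly Pecam1 (2.92 and 3.47 CPM) and Tek (2.92 and 2.23 CPM). Both were lower in libraries 1, opposite to Kdr, and Cdh5 stood at or below 0.248 CPM. The 7 macrophage markers, mostly Cd68, summed to 73.9 to 105 CPM over the 12 libraries, with C1qa at 0 counts. The 5 smooth muscle markers summed to 67.0 to 88.3 CPM, mostly Smtn and Des. Myh11, smooth muscle myosin, stood at 4.15 and 3.47 CPM in G3-YSD 2 and HSV 2 and at most 0.245 CPM elsewhere. It passed the filter on low counts through G3-YSD 2 and HSV 2. Of the 4 smooth muscle markers tested, 2 were called higher in library 2 against 1, beside 32.4% of all genes. The 4 adipocyte markers, nearly all Fabp4, summed to 233 to 271 CPM in the first 4 labels, 227 and 228 CPM in libraries 1 and 321 and 312 CPM in libraries 2, with Adipoq at or below 0.384 CPM. The part of these markers in the results was not tested. In bulk samples, fewer cells of a type and less RNA per cell cannot be told apart.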

How the data were processed

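RNA sequencing of polyA RNA (paired reads of 150 bases) was deposited as whole-number gene counts, 1 file per library for 12 libraries. Per the submitters' processing notes, HISAT2, HTSeq and the mm10 build were used. No tool version, annotation release or strand setting is given in the sources used here. Of 54532 identifiers, 54495 matched GENCODE M21. The deposited counts were tested with edgeR 4.0.16 (R 4.3.3): TMM scaling, its default filter on low counts (16840 genes kept), a quasi-likelihood fit over all 12 libraries with 1 term per label (6 residual degrees of freedom), and Benjamini-Hochberg adjustment over all genes, called under 0.05. A second fit added a number term for G3-YSD and HSV and another for the other 4 labels (4 residual degrees of freedom). CPM was computed here on the TMM scale. All 38 members are reported. From the other lists, genes called in a comparison are named, at most 5 per list and direction by lowest p. The members, the lists and the number contrasts were chosen with earlier results of these data known. DESeq2 1.42.0, other scalings, no filter, blocks and left-out libraries were alternatives. The procedure was tested on simulated data. Total counts of 12650790 to 18912400 set the counting precision.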

Additional observations from a re-analysis of the deposited data

Results flagged for a closer look

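For 21 members the difference between library 2 and library 1 was not the same in G3-YSD and HSV as in mock, HT-DNA, hpRNA and cGAMP, by the interaction term of the edgeR fit with number terms at an adjusted p under 0.05. The values are the log2 difference in G3-YSD and HSV minus that in the other labels, and all 21 are above 0. Among the fibrillar collagens they were Col1a1 (1.56), Col1a2 (0.69), Col3a1 (2.00), Col5a1 (1.42), Col5a2 (1.25). Among the network and beaded collagens they were Col4a1 (1.03), Col4a2 (0.94), Col6a1 (1.29), Col6a2 (1.51). Matrix glycoproteins and the proteoglycan biglycan gave Fn1 (0.40), Fbln2 (1.31), Fbln5 (1.36), Sparc (1.11), Thbs2 (1.75), Bgn (1.10). The enzymes and inhibitors gave Loxl1 (0.86), Loxl2 (1.42), Mmp14 (0.75), Timp2 (1.33). The cytoskeletal genes gave Vim (0.49), S100a4 (0.51). Across all genes, 28.7% were called in this direction and 31.4% in the other. The number contrasts were set up with the summed matrix levels of these libraries known, so the 21 calls are a description. The cause of the difference was not tested.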

How the results depend on the processing

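No called member changed direction under any alternative run. For G3-YSD against mock, 2 members were called: DESeq2 called 4, no filter on low counts 4 (Fbn1, Thbs1, Tnc and Lox, without Timp1), the 4 libraries compared alone 0, and leaving out 1 library gave 0 to 2. For HSV against mock, also 2, DESeq2 called 5, no filter 1 (Tnc, with neither Fbn1 nor Timp1), the 4 libraries alone 0, and leaving out 1 library 0 to 1. For G3-YSD against cGAMP, 2 were called, 4 by DESeq2, 2 others with no filter (Tnc and Mmp13), 0 with the 4 libraries alone, and 0 to 2 with 1 library left out. For HSV against cGAMP, 2 were called, 4 by DESeq2, 1 with upper quartile scaling, 1 with DESeq2's size factors, 3 with no filter (Tnc, Mmp13 and Itga5, without Fbn1), 0 with the 4 libraries alone and 0 to 1 with 1 left out. Over all genes, DESeq2 called 2208 for G3-YSD against mock and 2272 for HSV, against 869 and 876 by edgeR. With the 4 libraries compared alone, 0% of all genes were called in each of these comparisons. Leaving out a library of mock or cGAMP removed the calls of all genes in the comparisons with that label.

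Upper quartile scaling moved the median of all genes against mock from 0.107 to 0.243 for G3-YSD and from 0.105 to 0.257 for HSV, and the calls from 302 higher and 567 lower to 364 and 314, and from 291 and 585 to 347 and 304. Within number 2, it moved the shares of all genes higher and lower from 27.4% and 27.8% to 35.6% and 21.6% for G3-YSD, and from 26.8% and 27.9% to 35.8% and 21.3% for HSV.

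The number contrast in G3-YSD and HSV (24 members) ranged from 20 to 23 with 1 library left out, and the difference of the number contrasts (21) from 20 to 21. The number contrast in the other 4 labels (5) gave 2 in a fit of those labels alone and 1 to 5 with 1 library left out. Leaving out 1 library, the counts within number 1 were 18 to 22 (G3-YSD) and 16 to 22 (HSV), and within number 2 19 to 26 and 16 to 26, the lowest for HSV (16, against 25) without HSV 2. The share of all genes called within a number fell in each of these runs, and each leaves 1 library of a label. The summed level of the members without Vim was 4758 CPM in mock, 4772 in HT-DNA, 4860 in hpRNA and 4753 in cGAMP.

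The replicate block was checked by correlating the deviations of library 2 from library 1 between labels. They correlated at 0.37 to 0.65 among the first 4 labels, at 0.94 between G3-YSD and HSV, and at -0.31 to -0.36 between those sets, so the numbers are not shown to pair all samples. With a block over all 12 libraries, 4 members were called for G3-YSD against mock, 4 for HSV against mock and 4 for G3-YSD against cGAMP. The shares of all genes called were 7.19%, 7.21% and 6.78%. In blocks of the 4 libraries compared, 0 members were called in the 4 comparisons of G3-YSD or HSV with mock or cGAMP. The share of all genes was 0% in each. For hpRNA against mock 1 member was called, beside 1.3% of all genes. A number term per set of labels was added after seeing the data. With it, 17 and 15 members were called against mock for G3-YSD and HSV, beside 52% and 51.9% of all genes. Against cGAMP the counts were 20 and 18, beside 51.2% and 51.4%. For cGAMP against mock 1 was called, beside 0.469%. Crossed numbers, also added, gave 1 and 1 against mock and 0 and 1 against cGAMP. The shares of all genes were 6.76% and 6.86% against mock and 0.835% and 2.21% against cGAMP.

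With 2 libraries per label, the precision is set by the spread between libraries more than by counts, except for the 13 members below a mean of 3 CPM, where counts limit it.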
